A study of Homo sapiens with 6 samples.

Results

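The CRP proteins and other proteins with LIM domains were examined across all 6 RNA-seq libraries of the study. The genes were CSRP1, CSRP2 and CSRP3 (CRP family), CRIP1, CRIP2 and CRIP3 (cysteine-rich intestinal protein family), and FHL1, FHL2, FHL3 and LMCD1. These 10 genes were taken by symbol from the 58395 genes in the deposited count table. No threshold on their values was used, but earlier results of these data were known when they were chosen. MDA-MB-231 cells, an invasive triple-negative breast cancer line, had been transfected either with siCRP2#a, a single siRNA against CSRP2 (3 libraries, siCRP2), or with a non-targeting siRNA (3 libraries, siCTR). Cells of both groups were grown in complete DMEM under normal oxygen and harvested 65 h after transfection according to the labels, while the methods give a slightly later time. The data come from 1 cell line and 1 targeting siRNA, so effects of the loss of CRP2 and other effects of this siRNA cannot be told apart. The libraries held 18346442 to 39115778 counts in the siCRP2 group and 17336798 to 25321830 in the siCTR group, and column names carry a code (0412, 0611 or 1311) that a library of each group shares. In bulk RNA, fewer cells that express a gene and less RNA per cell cannot be told apart.

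A LIM domain folds around a pair of zinc ions held by conserved cysteine and histidine residues, and serves to bind other proteins. CRP proteins bundle actin filaments and bind alpha-actinin and zyxin in the cytoplasm, and act in the nucleus as cofactors of serum response factor (SRF) and GATA factors in muscle cells. FHL proteins join integrins, actin and transcription factors, and FHL2 is itself a known target gene of SRF. CSRP3, the muscle LIM protein, and FHL1 are best known from striated muscle.

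The zinc-binding pattern of the LIM domain was searched in the proteins translated from the canonical transcripts. CRP1, CRP2 and CRP3 each held 2 LIM motifs at nearly the same residues, at 10 to 61 and 119 to 170 in CRP1 and CRP2 and at 10 to 61 and 120 to 171 in CRP3. CRIP1, of 77 residues, held 1 motif, CRIP2 and CRIP3 held 2, and each FHL protein held 4. LMCD1, of 365 residues, held 2 motifs near its C-terminus, the first starting at residue 243. CRP1 and CRP2 shared 79.3% of their aligned residues, against 66.3% for CRP1 and CRP3 and 65.8% for CRP2 and CRP3. The coding sequences of CSRP1 and CSRP2 were identical at 72.9% of aligned bases, and the longest run without a difference was 14 bases. Identity was 68.8% between CRIP1 and CRIP2, 62.3% between CRIP2 and CRIP3, 53.4% between FHL2 and FHL3 and 48.4% between FHL1 and FHL2. Among all other pairings across families the highest value was 53.3%, over the 75 residues of CRIP1 that aligned with CRP1 or with CRP2.

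**Figure D1:**
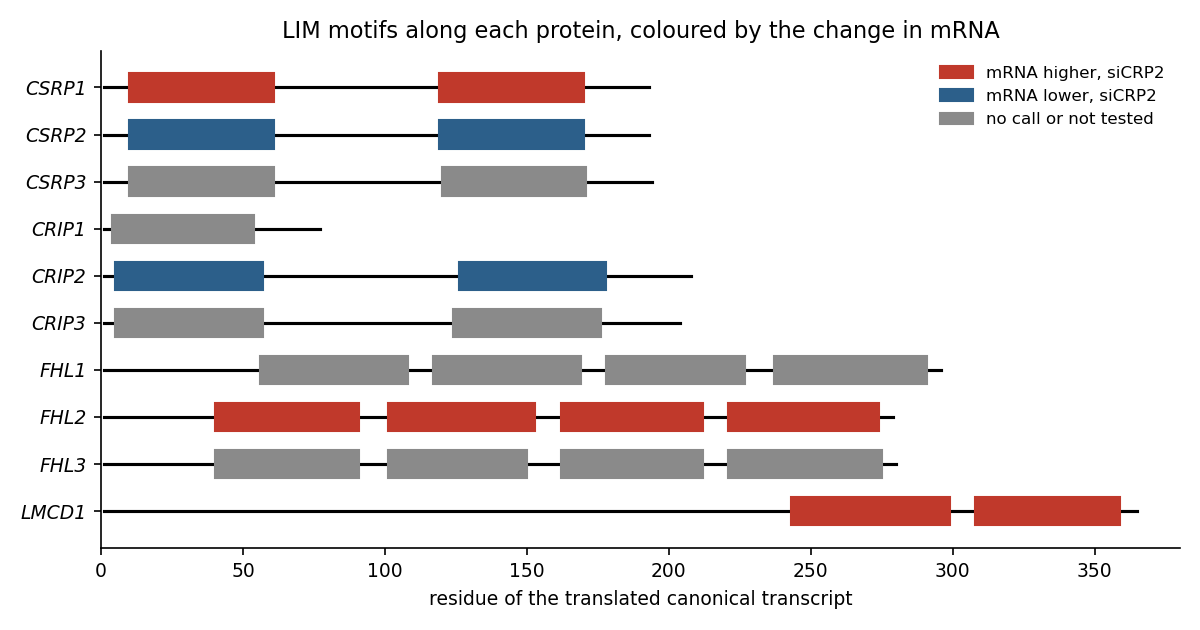
Position of LIM motifs (boxes) along the translated protein of each member (horizontal axis, residue number), to scale. Boxes of members called higher in siCRP2 cells are red, those called lower are blue, and the rest are grey. CSRP1 and CSRP2 have the same layout, with motifs at residues 10 to 61 and 119 to 170, and differ in colour.

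Short sequences are shown because the CRP paralogs differ in them while their proteins are close. The heptamer GCCTCAC was searched on the sense strand of canonical transcripts. It had been picked in an earlier analysis from the fold changes of these same libraries, so the shares below are no independent evidence. It was present in 46.5% of the 2369 protein-coding genes that were lower in siCRP2 cells, in 11.9% of the 2852 that were higher, and in 23.9% of all 14858 tested. Transcript length and base composition were not taken into account. CSRP2 holds it once, in its coding sequence at transcript bases 371 to 377, and CSRP1 once, in the 3' untranslated region at bases 1698 to 1704 of 1820. The other 8 members do not hold it in their canonical transcripts. The stretch of CSRP2 around the heptamer (coding bases 278 to 304, codons 93 to 102) is printed with the stretches of CSRP1 (the same coding bases) and CSRP3 (coding bases 281 to 307) that align with it by codon, in lower case with the 7 bases of the heptamer position in capitals. The last line is the CSRP1 site.
CSRP2: agagtgttcaGCCTCACaggcctacaa
CSRP1: aggaagccccTGGCCACaggcccacca
CSRP3: agtccccaaaGCCGGCAcgctcagtta
CSRP1 3' site: aaagggctggGCCTCACcgctcccagc
Of the 27 bases, 15 were the same in CSRP1 and 9 in CSRP3, and of the 7 in capitals 3 were the same in each. The sequence of siCRP2#a was not used here, and the part of any of these sites in the changes was not tested.

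The promoter windows of the members (RefSeq, GRCh38.p14, 250 bases before to 50 after each transcript start) were searched for the CArG box, the sequence that SRF binds, after the values had been seen. The box reads the same on both strands, so one search covers both. It was found in 1.29% of 35116 windows over all genes. Windows were held for every member except CSRP3. FHL2 had the box in 3 of its 4 windows, at 2 sites, and FHL1 in 1 of 12. The windows of CSRP1 (3), CSRP2 (2), CRIP2 (4), and CRIP1, CRIP3, FHL3 and LMCD1 (1 each) had none. Each site is printed on the strand of its gene with 10 bases on either side, and capitals mark the box.
FHL2, chr2:105438595-105438624, minus strand: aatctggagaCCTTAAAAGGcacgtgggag
FHL2, chr2:105399091-105399120, minus strand: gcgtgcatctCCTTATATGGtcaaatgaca
FHL1, chrX:136196911-136196940, plus strand: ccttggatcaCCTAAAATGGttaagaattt
These matches are a description of sequence, and binding was not measured.

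The targeted gene CSRP2 (chromosome 12, 76858709 to 76879023, minus strand, GRCh38) was lower in every library of the siCRP2 group, by about the same factor whichever code the libraries shared. It had 41, 38 and 74 counts in the siCRP2 libraries 0412, 0611 and 1311, against 348, 201 and 249 counts in the siCTR libraries of the same codes. The groups did not overlap. The log2 ratio of siCRP2 to siCTR was -2.66, -2.71 and -2.59 within the 3 codes, and the fitted fold was 0.158 (95% interval 0.122 to 0.205, adjusted p = 2.4e-08 in edgeR). By its p-value CSRP2 ranked 42nd of 23806 genes tested, so the intended target was not the gene with the smallest p. A rank by p also depends on how many counts a gene has. LIMK1, described below, ranked 5th with a smaller change (-1.77 as log2) on 2981 counts in siCRP2 and 8239 in siCTR libraries.

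CSRP1, which encodes CRP1 and is the most abundant member, was slightly higher in siCRP2 cells. It lies on chromosome 1 (201483530 to 201509456, minus strand). Its level in CPM (counts scaled to the library total) was 212, 207 and 200 in siCRP2 libraries 0412, 0611 and 1311 and 182, 165 and 150 in the siCTR libraries of these codes. All siCRP2 values lay above all siCTR values, and the ratio was above 1 in each code. The fold was 1.24 with a 95% interval of 1.09 to 1.41 (0.31 ± 0.0879 as log2 with its standard error). In the quasi-likelihood test of edgeR the adjusted p was 0.014 without pairing and 2.4e-06 with libraries paired by code. Fits that left out a library were unpaired. The call was lost when any library other than siCTR 0412 was left out, with adjusted p = 0.054, 0.08 and 0.062 without siCRP2 library 0412, 0611 and 1311, and 0.061 and 0.058 without siCTR library 0611 and 1311 (edgeR). An antisense gene, CSRP1-AS1, overlaps exons of CSRP1 and held 69 counts in siCRP2 and 47 in siCTR libraries, against 16222 and 10731 for CSRP1.

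CSRP3, the muscle LIM protein gene (chromosome 11, 19182030 to 19210571, minus strand), was near the limit of detection. It had 12, 8 and 18 counts in the siCRP2 libraries, against 22, 12 and 13 in the siCTR libraries. In CPM it was lower in siCRP2 in each of the 3 codes, but the groups overlapped. The fold of 0.669 had a 95% interval of 0.387 to 1.15 (adjusted p = 0.3 from edgeR), so a change of this size was not detectable at this depth. Striated muscle markers were also low: of 7, MYH7 and CKM had no count in any library, and the summed level was 0.154 to 0.476 CPM in siCRP2 and 0.778 to 1.57 CPM in siCTR libraries, most of it from TTN (titin). Whether these markers and CSRP3 share a source was not tested.

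**Figure D2:**
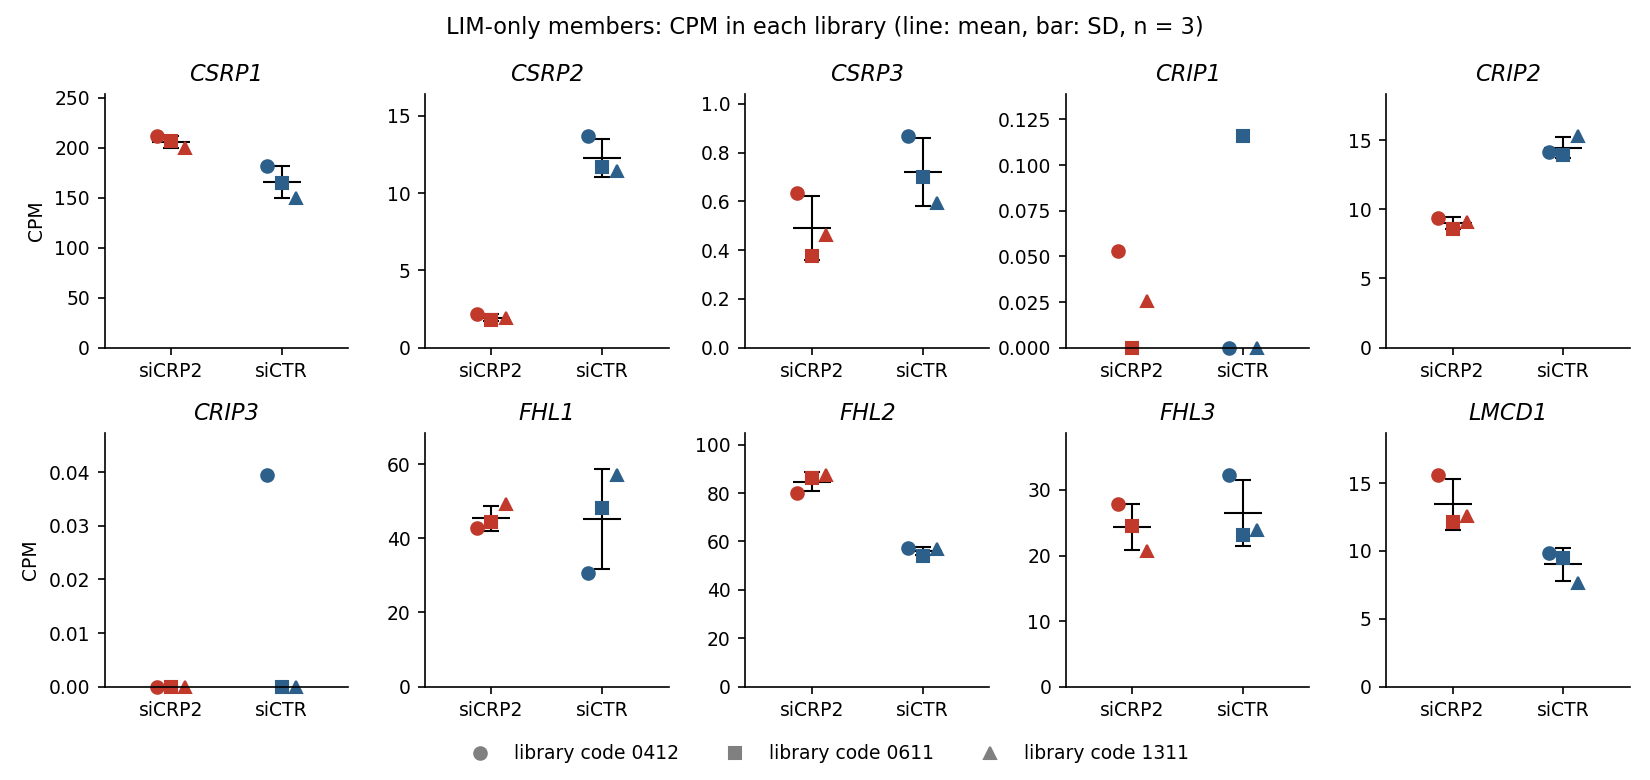
CPM of the 10 members (vertical axes, each from 0) in the 3 siCRP2 libraries (red) and the 3 siCTR libraries (blue), with the marker shape giving the library code, and lines and bars for mean and SD (not drawn for CRIP1 and CRIP3, which hold 4 counts and 1 count in all). CSRP2 and CRIP2 are lower, and CSRP1, FHL2 and LMCD1 higher, with no overlap between the groups. FHL1 ranges from 30.6 to 57.1 CPM within the siCTR group.

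Within the CRP family the share of CSRP2 transcripts was far lower in siCRP2 cells, while the summed level of the family overlapped between the groups and was somewhat higher in siCRP2 within every code. Per kilobase of exon, CSRP2 made up 1.74%, 1.48% and 1.62% of CRP transcripts in siCRP2 libraries 0412, 0611 and 1311, against 11.5%, 10.9% and 11.5% in the siCTR libraries. The mean share was 1.62% ± 0.129 in siCRP2 and 11.3% ± 0.35 in siCTR cells (SD, n = 3 each). The groups were fully apart. An exact permutation test over libraries, two-sided, gave p = 0.1, which is as low as 3 against 3 can reach. The summed level of the 3 genes was 86.0 ± 4.11 TPM (counts per kilobase of exon, scaled to the same total in each library) in siCRP2 and 77.4 ± 8.28 TPM in siCTR cells (SD, n = 3 each). The sums overlapped (p = 0.3, exact permutation), with 90.3, 85.6 and 82.1 TPM in siCRP2 and 86.1, 76.7 and 69.5 TPM in siCTR libraries. Within each of the 3 codes the sum was higher in the siCRP2 library. CSRP1 made up most of both sums, at 83.4 and 66.9 TPM. With the length of the canonical transcript in place of all exons of a gene, the CSRP2 share was 1.85% in siCRP2 and 12.9% in siCTR cells, and the summed level was 277 TPM in siCRP2 and 250 TPM in siCTR cells. From counts not divided by length, the share was 0.933% in siCRP2 and 6.87% in siCTR cells.

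**Figure D3:**
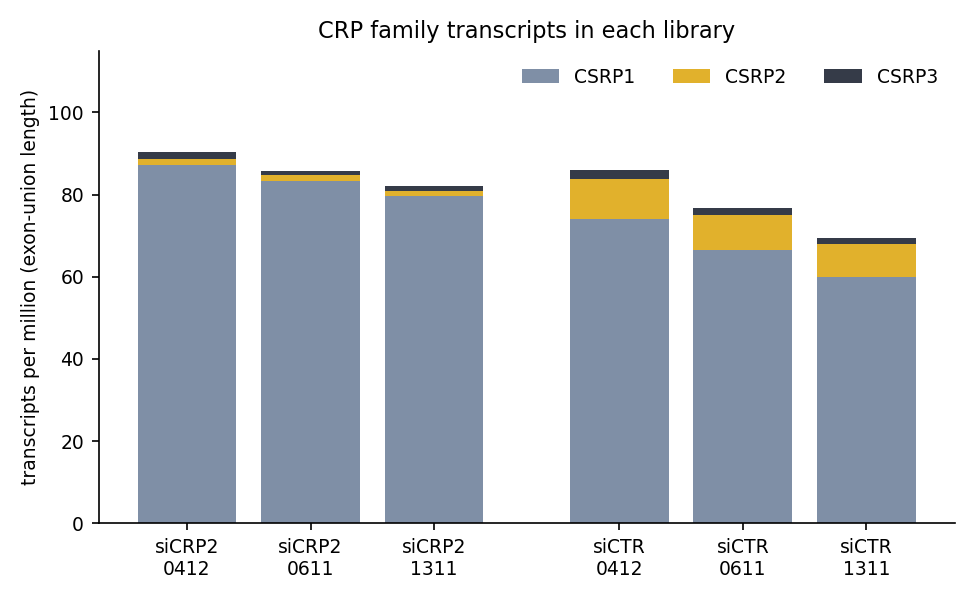
TPM (vertical axis, per exon-union length) of CSRP1, CSRP2 and CSRP3, stacked, in each of the 6 libraries, siCRP2 on the left and siCTR on the right. CSRP2 is 1.27 to 1.57 TPM in the siCRP2 libraries and 8.03 to 9.85 TPM in the siCTR libraries, while the stacks reach 82.1 to 90.3 and 69.5 to 86.1 TPM.

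Of the cysteine-rich intestinal protein genes, only CRIP2 had enough counts to be compared, and it was lower in siCRP2 cells. CRIP2 is a protein with a pair of LIM domains, known from the vasculature and heart (chromosome 14, 105472962 to 105480162, plus strand). It stood at 9.36, 8.54 and 9.09 CPM in siCRP2 libraries 0412, 0611 and 1311, against 14.1, 13.9 and 15.3 CPM in siCTR libraries. The groups lay well apart, and each varied little (coefficient of variation 4.64% in siCRP2, 5.34% in siCTR). This is a fold of 0.625 (-0.68 on the log2 scale, standard error 0.134, edgeR adjusted p = 0.0012), and the call held in all 12 alternatives (adjusted p = 4.4e-09 to 0.0088). CRIP1, its neighbour on chromosome 14 (105486317 to 105488947), had 2 counts in the siCRP2 and 2 in the siCTR libraries. It passed the filter only because 2 siCRP2 libraries held 1 count each, and no fold is given. CRIP3 (chromosome 6) had 0 counts in siCRP2 and 1 in siCTR libraries and was not tested. Exons of both CRIP1 and CRIP3 overlap another gene on the same strand, and reads shared by overlapping genes may not be counted, so low counts of these 2 genes need not mean low expression. The 3 counts taken as the floor correspond to 0.0768 to 0.159 CPM in the siCRP2 and 0.118 to 0.175 CPM in the siCTR libraries.

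FHL2, an adaptor of integrins and a cofactor of several transcription factors, was the member with the clearest increase. It lies on chromosome 2 (105357712 to 105438513, minus strand). It was at 80.2, 86.2 and 87.5 CPM in siCRP2 libraries 0412, 0611 and 1311 and at 57.3, 54.0 and 56.9 CPM in siCTR libraries. The lowest siCRP2 value was far above the highest siCTR value. The fold was 1.51, or 0.59 as log2 (95% interval 0.41 to 0.77, standard error 0.0856, edgeR adjusted p = 7.4e-05), and the gene passed in all 12 alternatives (adjusted p = 1.4e-16 to 0.0029). FHL1 and FHL3 did not pass. FHL1, a regulator of muscle growth (chromosome X, 136146702 to 136211359), was at 42.8, 44.3 and 49.2 CPM in siCRP2 and 30.6, 48.2 and 57.1 CPM in siCTR libraries. The siCTR libraries differed more among themselves than the groups did, with a coefficient of variation of 29.8% in siCTR and 7.4% in siCRP2. The fold was 1.01 with a 95% interval of 0.699 to 1.45 (adjusted p = 0.98 from edgeR), and within codes the ratio was above 1 for 0412 and below 1 for 0611 and 1311. Without siCTR library 0412 the log2 fold change was -0.21 (edgeR adjusted p = 0.18). FHL3 (chromosome 1, 37996770 to 38005606) was at 27.8, 24.5 and 20.7 CPM in siCRP2 and 32.3, 23.2 and 23.9 CPM in siCTR libraries, overlapping throughout. Its fold of 0.915 had a 95% interval of 0.739 to 1.13 (adjusted p = 0.59 from edgeR), so a fall by more than 0.44 on the log2 scale lay outside that interval.

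LMCD1, a LIM protein known to hold the transcription factor GATA6 off DNA, was higher in siCRP2 cells. It lies on chromosome 3 (8501807 to 8574668, plus strand). It stood at 15.6, 12.1 and 12.6 CPM in siCRP2 libraries 0412, 0611 and 1311, against 9.87, 9.49 and 7.64 CPM in siCTR libraries. The groups did not overlap, and the siCRP2 library 0412 was the highest. On the log2 scale the difference was 0.57 (standard error 0.154, edgeR adjusted p = 0.011), and without siCRP2 library 0412 it was 0.45 (adjusted p = 0.069). With all libraries paired by code it was 0.58 (edgeR adjusted p = 1e-06).

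**Figure D4:**
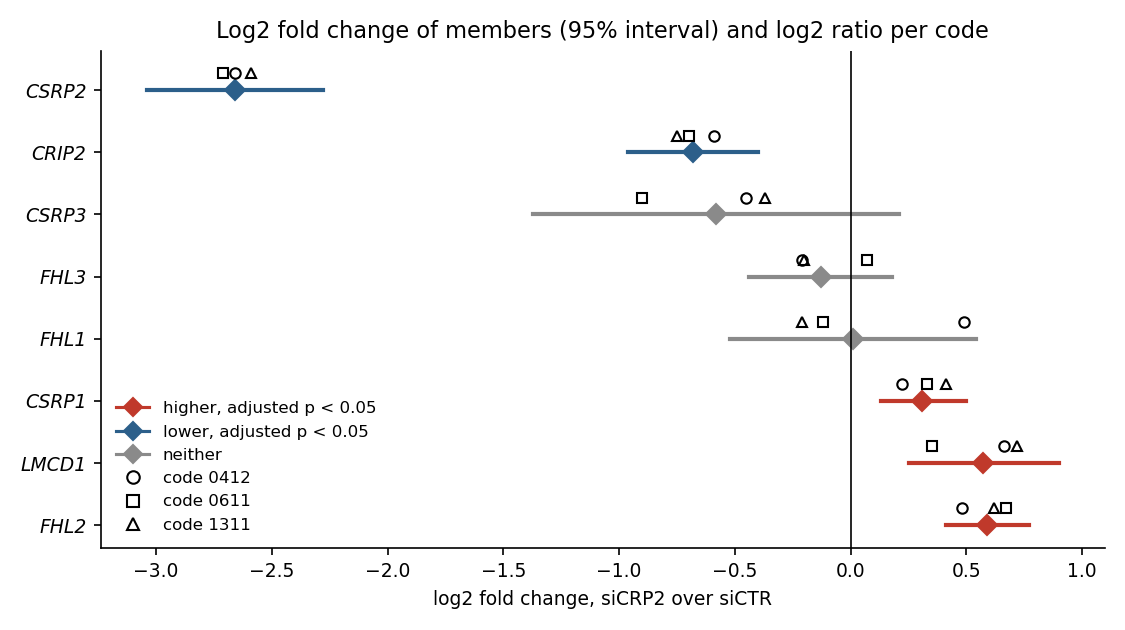
Log2 fold change of siCRP2 over siCTR (horizontal axis) with its 95% interval for the 8 members with enough counts, red where higher, blue where lower and grey where not past an adjusted p of 0.05. Open symbols are the log2 ratios within each library code. CSRP2 at -2.66 stands apart from the other members, which lie between -0.68 and 0.59.

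Of the 9 members tested, 2 were lower and 3 higher at an adjusted p under 0.05 in edgeR's test, and each of these 5 had groups without overlap. Over all 23806 genes tested, 11.5% were lower, 12.5% higher and 24% passed in either direction, and the groups were without overlap in 18% with siCRP2 lower, in 19.4% with siCRP2 higher and in 37.4% either way. CSRP2 is counted here although the siRNA was aimed at it. The median log2 fold change was -0.13 over the 9 members and -0.02 over all genes tested. With a fold change over 1.5 as well, CSRP2 and CRIP2 remained lower and FHL2 alone higher, at a fold of 1.51 just inside that limit, with LMCD1 at 1.49 just outside. With libraries paired by code, 4229 genes were lower and 4644 higher in all, and for the members the calls were the same as without pairing.

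CSRP1 had the highest level per length in both groups. Per exon union, in siCRP2 cells CSRP1 (83.4 ± 3.73 TPM) was followed by FHL2 (53.2 ± 1.69) and FHL3 (50.7 ± 8.16), which overlapped, then FHL1 (32.3 ± 1.92), CRIP2 (9.01 ± 0.492), LMCD1 (6.21 ± 0.949), and CSRP2 (1.39 ± 0.159) and CSRP3 (1.25 ± 0.354), which overlapped (SD, n = 3 each). In siCTR cells CSRP1 (66.9 ± 6.98 TPM) and FHL3 (55.0 ± 10.8) overlapped, as did FHL2 (35.2 ± 1.12) and FHL1 (32.1 ± 9.31), and CRIP2 (14.4 ± 0.642), CSRP2 (8.75 ± 0.974), LMCD1 (4.15 ± 0.586) and CSRP3 (1.84 ± 0.368) followed apart from each other. The order depends on the length used. Per canonical transcript, CSRP2 was at 5.14 TPM in siCRP2 and 32.2 TPM in siCTR cells and stood above LMCD1 in both groups (3.88 TPM in siCRP2 and 2.58 TPM in siCTR cells), whereas per exon union it stood below LMCD1 in siCRP2 cells. On the canonical scale CRIP2 was at 18.3 TPM in siCRP2 and 29.1 TPM in siCTR cells, so CSRP2 was above it in siCTR cells. FHL3 (35.2 TPM in siCRP2, 38.0 TPM in siCTR cells) then stood below FHL1 (47.5 TPM in siCRP2, 47.0 TPM in siCTR cells), FHL2 (128 TPM in siCRP2, 84.3 TPM in siCTR cells) and CSRP1 (271 TPM in siCRP2, 217 TPM in siCTR cells).

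Ratios between members within a library were chosen after the values were seen. They restate the changes given above, and their p-values are no independent evidence. FHL2 and CRIP2 belong to different families. The log2 ratio of CSRP1 to CSRP2 was higher by 2.97 in siCRP2 than in siCTR cells, that of FHL2 to CRIP2 by 1.27, that of FHL2 to FHL3 by 0.71 and that of FHL2 to FHL1 by 0.54. For the first 3 the groups did not overlap (exact permutation p = 0.1, the lowest possible here, and 0.133 after adjustment over the 4 pairs). For FHL2 and FHL1 they overlapped (p = 0.3, exact permutation test), and siCTR library 0412 had a ratio like the siCRP2 libraries. Without siCTR library 0412 the difference for this pair was 0.82. With 3 libraries against 3, no pair could reach p under 0.05.

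Among other genes with LIM domains, changes went both ways. Of 39 genes listed as cytoskeletal LIM proteins, most of which carry further domains, 14 were lower and 9 higher. Over all genes tested, 11.5% were lower and 12.5% higher (median log2 fold change -0.18 in the list and -0.02 over all genes). Of the 14858 protein-coding genes tested, a closer background for this and the later lists, 2369 were lower and 2852 higher. The lower genes with the smallest p were LIMK1, the kinase that phosphorylates cofilin, at -1.77 on the log2 scale, TGFB1I1 (HIC-5), a paxillin relative of focal adhesions, at -1.41, MICAL2, which oxidises actin, at -0.84, and LPXN (leupaxin) at -1.30. Without siCRP2 library 1311, 5 of the list were higher rather than 9. Of 9 other genes for proteins made of LIM domains, 4 could be tested and LIMS1 (PINCH1), a partner of integrin-linked kinase, was lower, at 24.5 CPM in siCRP2 and 47.7 CPM in siCTR cells (-0.96 as log2, edgeR adjusted p = 9.9e-06). None was higher, also at an unadjusted p under 0.05 and in DESeq2. The closely related LIMS3 and LIMS4 had no count, and reads that match several of them may be lost. FHL5 had no count either. Of 18 LIM homeodomain factors and LIM cofactors, 11 could be tested. The homeodomain factors among them averaged at most 4.6 CPM in either group, and the cofactors more. RLIM, a ubiquitin ligase of LIM cofactors, was higher at 0.29, a call lost without siCRP2 library 0611 or 1311. None was lower in edgeR's test (3 at an unadjusted p under 0.05, 2 in DESeq2 and 3 with libraries paired by code), and 1 was lower without siCTR library 1311. The fit paired by code called 4229 of all 23806 genes tested lower.

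Of 9 tested genes for partners of CRP proteins, 3 were lower and 1 higher, where 11.5% and 12.5% of all genes were (median log2 fold change -0.23). SRF, with which CRP2 acts in the nucleus, was at 40.8 CPM in siCRP2 and 107 CPM in siCTR cells (-1.40 as log2, edgeR adjusted p = 6.7e-08). The actin crosslinkers ACTN4 and ACTN1 (alpha-actinins) were at -1.70 and 0.29, and the acetyltransferase gene KAT2B at -0.44. ACTN1 did not pass in exactTest, with edgeR's expression filter, or without siCRP2 library 0412, 0611 or 1311 or siCTR library 0611. With libraries paired by code, 4 CRP partner genes were lower and 2 higher, against 4229 and 4644 of all 23806 genes tested. Of 14 tested genes for partners of FHL proteins, 5 were lower and 1 higher, beside the same 11.5% and 12.5% of all genes (median log2 fold change -0.10). Among them RBPJ, the effector of Notch signalling, was at -0.47, CTNNB1 (beta-catenin) at -0.42, ITGB1 (integrin beta 1) at -0.41 and the SMAD corepressor gene SKI at 0.37. Without siCRP2 library 1311 or siCTR library 0611 only 2 were lower. With libraries paired by code, 5 FHL partner genes were lower and 2 higher, beside the same 4229 and 4644 of all genes.

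Of 15 tested genes on a list of smooth muscle and cytoskeletal genes drawn up around SRF and CRP2, 2 were lower and 2 higher. Without pairing by code this was near the shares over all genes tested (11.5% lower, 12.5% higher). The median log2 fold change was 0.00. Which of these genes CRP2 drives in these cells was not tested. MYL9, a myosin light chain, was at 131 CPM in siCRP2 and 200 CPM in siCTR cells (-0.62 as log2, edgeR adjusted p = 0.00016). SYNPO2 was lower at -0.99 on few counts, 48 in siCRP2 and 77 in siCTR libraries. CNN2 (calponin 2) was higher at 0.49 and VCL (vinculin) higher at 0.28. The median also covers genes with almost no counts, such as DES with 4 in siCRP2 and 6 in siCTR libraries. With libraries paired by code, 5 of the 15 were lower and 5 higher, against 4229 and 4644 of all 23806 genes tested. Without siCRP2 library 0412, 0611 or 1311, 1 was lower and 1 higher, while 1 was higher without siCTR library 0611 or 1311 and 4 without siCTR library 0412.

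**Figure D5:**
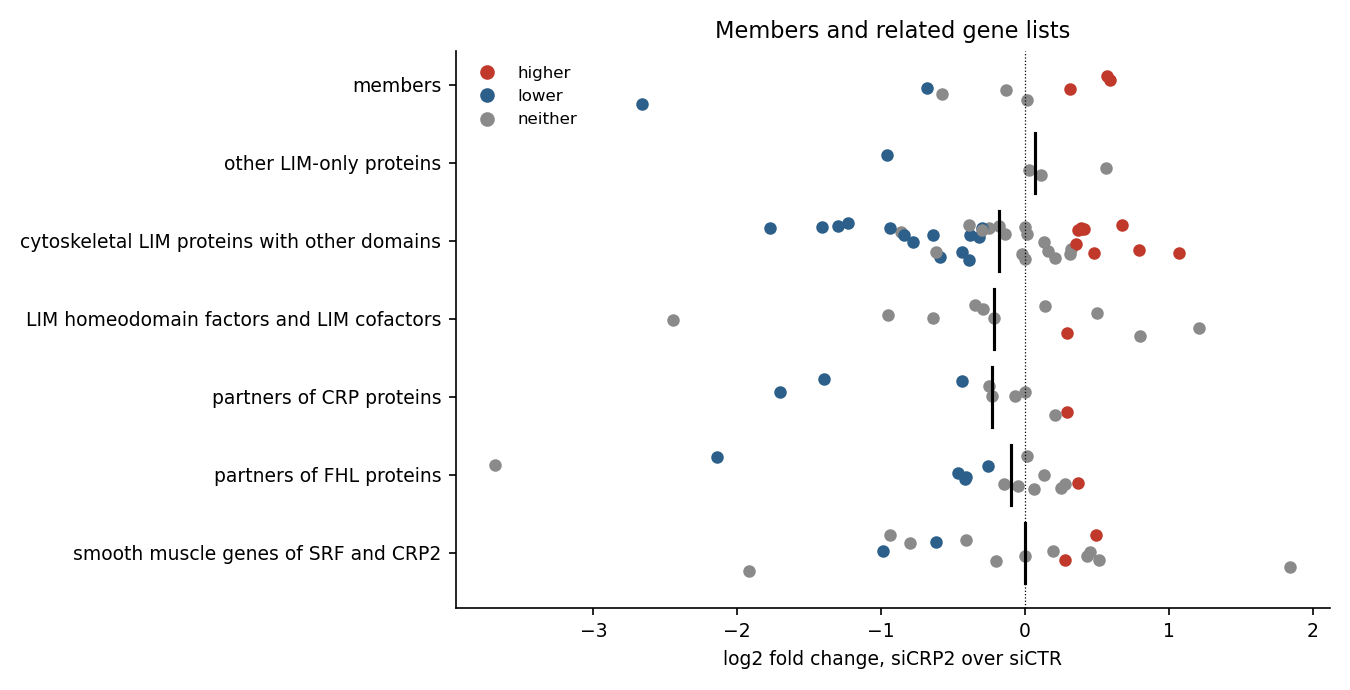
Log2 fold change of siCRP2 over siCTR (horizontal axis) for the members and the tested genes of 6 related lists, with CRIP1 not drawn. A point stands for 1 gene, coloured red if called higher, blue if called lower and grey if neither, with vertical spread only for legibility, and black lines are medians of the 6 lists. Positions of genes with few counts depend on the prior count of the fit. Cytoskeletal LIM proteins have 14 blue and 9 red points, and the smooth muscle list 2 of each.

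Among the genes most like CSRP2 over the 6 libraries, by Pearson's correlation of log2 CPM among the 10446 protein-coding genes that averaged 5 CPM or more, were WNT5B (r = 0.9994), KDM3B (0.9993), CALHM2 (0.9989) and WDTC1 (0.9982). These 4 were lower in siCRP2 libraries, with WNT5B, a Wnt ligand gene, at 7.14, 6.29 and 6.37 CPM in siCRP2 and 23.8, 20.4 and 21.2 CPM in siCTR libraries. KDM3B, a histone demethylase gene, was the least changed of the 4, at 106 ± 0.749 CPM in siCRP2 and 123 ± 1.24 CPM in siCTR cells (SD, n = 3 each), and did not pass (adjusted p = 0.059 from edgeR). The points share the difference between the groups, and 775 genes had r above 0.95, so the order among them is a description.

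The labelled cell type was checked by its markers. VIM, CD44, EGFR, AXL, KRT18, KRT8 and CAV1 had means of 288 to 1700 CPM, while PGR had no count and ESR1 and FOXA1 at most 4 counts in a group. GATA3, listed as low, was at 14 CPM in siCRP2 and 14.8 CPM in siCTR cells, and KRT5 had 0 counts in siCRP2 and 7 in siCTR libraries. Of the leukocyte markers, CD3E had 1 count in siCRP2 and 0 in siCTR libraries, PTPRC had 25 in siCRP2 and 27 in siCTR libraries, and the summed level of 9.32 to 11.1 CPM in siCRP2 and 29.9 to 39.5 CPM in siCTR libraries was mainly CD14. Endothelial markers summed to 5.08 to 7.42 CPM in siCRP2 and 9.76 to 22.0 CPM in siCTR libraries, mainly PECAM1, and CDH5 had 3 counts in siCRP2 and 5 in siCTR libraries. Fibroblast markers summed to 3.33 to 5.66 CPM in siCRP2 and 4.25 to 6.13 CPM in siCTR libraries, mainly LUM, and DCN had 0 counts in siCRP2 and 1 in siCTR libraries. The part of these markers in the results was not tested. The smooth muscle markers MYH11, DES, CNN1 and ACTG2, relevant to CRP2, summed to at most 0.265 CPM in any library. The smooth muscle genes ACTA2 and TAGLN, not among these markers, were higher than that. ACTA2 was at 4.72 CPM in siCRP2 and 3.39 CPM in siCTR cells, and TAGLN at 3.43 and 6.58 CPM.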

How the data were processed

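The authors aligned paired-end reads to GRCh38 with STAR and deposited the raw read counts that STAR wrote for each Ensembl gene. GRCh38 and hg38 are the builds in the submitters' processing notes. The libraries are described as stranded in the methods, but the count column taken, the STAR version and the annotation were not given in the sources used here, so reads of a gene and of an overlapping antisense gene may not be separated. A gene entered the test (23806 of 58395) when 2 or more libraries of either group held a count. Genes were compared after TMM scaling with edgeR's robust quasi-likelihood test (version 4.0.16, R 4.3.3), siCRP2 over siCTR, Benjamini-Hochberg adjusted over all genes tested. Standard errors and 95% intervals came from the fold change, the F statistic and its degrees of freedom. Alternatives were DESeq2 (1.42.0), DESeq2 size factors, exactTest, other filters, leaving out each library, and pairing by the code in the column names. CPM used library totals times TMM factors, and log2 CPM a prior count of 2. TPM used exon-union lengths of GENCODE 44, which held 57754 of the genes.

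Columns were assigned to groups by name. The codes pair libraries: deviations from the group means correlated at 0.723, 0.459 and 0.744 for the same code and at most 0.114 otherwise, over 10828 genes. The paper calls the replicates biological, and p-values reflect how these 6 libraries vary. A floor of 3 counts covers counting error only. Proteins were translated from GENCODE canonical transcripts and aligned with Biopython (1.88). The fit was tested on simulated data in which libraries varied independently, without the pairing by code seen in the real libraries. The members and gene lists were chosen with earlier results of these data known. The text names the members, up to 4 called genes with the smallest p from each list, the 5 genes most correlated with CSRP2, and markers, except that some of these are not reported here. Ratios of members and the CArG search were added after values had been seen, and FHL5, LIMS3 and LIMS4 were named because they held no count.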

Additional observations from a re-analysis of the deposited data

How the results depend on the processing

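CSRP2, CRIP2 and FHL2 kept their calls in all 12 alternatives. CSRP3, CRIP1 and CRIP3 had too few counts for a precise comparison. Fits without 1 library gave 2 lower members throughout and 1 to 3 higher (1 without siCRP2 library 0412, where CSRP1 and LMCD1 were lost), and a fold change over 1.5 as well left 1 higher. FHL1, near 0, turned negative with DESeq2 size factors (-0.01), in DESeq2 (-0.01), with edgeR's expression filter (-0.04) and without a filter (-0.01), and spanned -0.21 to 0.22 without 1 library. FHL3 spanned -0.24 to 0.04. The cause was not tested.

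With the replicate block by code, all genes gave 4229 lower and 4644 higher calls, against 2735 and 2987 without it. The block gave 3 lower LIM homeodomain and cofactor genes, 2 higher CRP partners, 2 higher FHL partners and 5 lower and 5 higher smooth muscle genes. It changed no call of a member. A fold over 1.5 left 1091 higher genes. Without 1 library, all genes gave 2048 to 2888 lower and 1933 to 3128 higher calls, the fewest higher without siCRP2 library 1311.

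Lower LIM homeodomain and cofactor genes numbered 2 in DESeq2, 2 with edgeR's expression filter, 1 without a filter, and 0 to 1 without 1 library, and higher ones 0 to 1. Higher CRP partners numbered 0 in exactTest, 0 with edgeR's filter and 0 to 1 without 1 library. Without 1 library, higher cytoskeletal LIM genes numbered 5 to 9 and lower FHL partners 2 to 5. Lower smooth muscle genes numbered 4 in exactTest, 4 without a filter and 1 to 2 without 1 library, and higher ones 4 in DESeq2, 4 without a filter and 1 to 4 without 1 library.

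The difference in the CSRP2 share of CRP transcripts was -9.68 percentage points, against -11 with canonical lengths, -5.93 without length and -9.88 to -9.56 without 1 library. That of the summed level was 8.56 TPM, against 26.9 TPM with canonical lengths and 4.61 to 12.9 TPM without 1 library.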
